A study of Homo sapiens with 6 samples.

Results

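The genes of cholesterol and fatty acid synthesis that sterol regulatory element-binding proteins (SREBPs) control were examined in HCT116 cells, a human colorectal carcinoma line, with a short hairpin RNA against PRSS22. The rule that gives the set is a list of gene names and holds no threshold on measured values, but the list was drawn up with earlier results of these data known. It holds 36 genes among the 17269 genes of the deposited table. All 36 passed the filter on low counts that left 13104 genes for testing. They were split by role into 18 sterol enzymes, 6 regulators and carriers, and 12 fatty acid genes. The 2 groups were shPRSS22, described as PRSS22 knockdown, and shCtrl, described as wild type in the genotype label and carrying a control hairpin by its title, with 3 libraries each. Both were kept in RPMI1640 medium with serum and antibiotics. The labels do not state the hairpin sequence, how many hairpins were used, the time after their introduction, or whether the cells were clones or pools. Nor do they tell whether the replicates came from separate cultures, so p-values measure only the spread between these libraries, which may be technical.

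Cells make cholesterol from acetyl-CoA through mevalonate, farnesyl pyrophosphate, squalene and lanosterol. SREBP2, the product of SREBF2, drives mainly this route and the uptake of lipoproteins, while SREBP1, the product of SREBF1, drives mainly fatty acid synthesis. When membrane sterol is low, the escort protein SCAP carries the precursors from the endoplasmic reticulum to the Golgi, where proteases release the transcription factor domain. When sterol is ample, INSIG proteins hold SCAP back. Serum supplies sterol to cultured tumour cells, so synthesis and uptake act side by side there.

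SREBPs bind sterol regulatory elements, usually with NF-Y or Sp1 bound close by. To show where such letters lie, promoter windows from 250 bases before to 50 bases after the annotated start were taken from RefSeq (GRCh38.p14). A window was at hand for 33 of the 36 genes, with 48 windows in all, because 11 genes had more than 1 start. None was at hand for FASN, SQLE or FDFT1, each called higher in shPRSS22, so the shares below leave them out. Both strands were searched for an SRE core (CACNCCAC), an NF-Y box (CCAAT), an Sp1 box (GGGCGG) and an E-box (CACGTG). A choice of 5 windows is printed 5′ to 3′ on the gene's strand, with SRE core and NF-Y matches in capitals, because these are the windows of SREBF2, its feedback inhibitor INSIG1, the 2 sterol enzymes that rose and held the core, and the most abundant fatty acid gene.
SREBF2, chr22:41832855-41833154, plus strand: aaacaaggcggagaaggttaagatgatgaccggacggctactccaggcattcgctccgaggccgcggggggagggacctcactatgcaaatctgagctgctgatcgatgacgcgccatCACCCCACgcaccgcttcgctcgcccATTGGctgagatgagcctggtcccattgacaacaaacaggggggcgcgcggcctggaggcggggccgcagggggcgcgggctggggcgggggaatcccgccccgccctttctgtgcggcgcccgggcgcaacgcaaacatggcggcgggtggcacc
INSIG1, chr7:155297628-155297927, plus strand: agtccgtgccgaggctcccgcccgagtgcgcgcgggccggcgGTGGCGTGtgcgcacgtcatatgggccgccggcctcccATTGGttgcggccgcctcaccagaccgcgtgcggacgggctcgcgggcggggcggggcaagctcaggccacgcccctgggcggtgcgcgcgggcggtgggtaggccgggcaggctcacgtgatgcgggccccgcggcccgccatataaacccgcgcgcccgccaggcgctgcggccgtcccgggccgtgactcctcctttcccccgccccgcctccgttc
IDI1, chr10:1048837-1049136, minus strand: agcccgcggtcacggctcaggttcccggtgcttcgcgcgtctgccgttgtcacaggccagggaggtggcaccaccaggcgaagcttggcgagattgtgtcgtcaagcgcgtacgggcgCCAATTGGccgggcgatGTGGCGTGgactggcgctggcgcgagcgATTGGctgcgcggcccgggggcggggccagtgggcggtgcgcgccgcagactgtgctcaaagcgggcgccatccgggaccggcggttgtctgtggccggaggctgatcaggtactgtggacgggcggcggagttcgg
SC5D, chr11:121292521-121292820, plus strand: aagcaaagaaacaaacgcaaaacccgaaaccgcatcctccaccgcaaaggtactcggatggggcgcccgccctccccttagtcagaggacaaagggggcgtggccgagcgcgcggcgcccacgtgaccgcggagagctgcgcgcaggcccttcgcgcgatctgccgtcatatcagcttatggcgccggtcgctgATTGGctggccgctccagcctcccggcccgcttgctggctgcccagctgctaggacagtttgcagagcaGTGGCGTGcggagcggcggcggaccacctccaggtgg
SCD, chr10:100346983-100347282, plus strand: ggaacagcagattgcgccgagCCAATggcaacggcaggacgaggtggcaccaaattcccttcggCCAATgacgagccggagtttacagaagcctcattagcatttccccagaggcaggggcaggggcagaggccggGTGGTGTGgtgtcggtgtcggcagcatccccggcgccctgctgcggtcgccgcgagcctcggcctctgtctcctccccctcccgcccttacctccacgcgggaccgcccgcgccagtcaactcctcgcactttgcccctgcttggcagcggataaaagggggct
The SRE core began 132 bases before the start in SREBF2, at 208 bases before in INSIG1, at 115 bases before in IDI1, at 14 bases after in SC5D and at 114 bases before in SCD. In IDI1, an NF-Y match on the plus strand and another on the minus strand, at 132 and 129 bases before the start, share their inner letters, and no SRE core overlapped another motif. The SRE core was present in 7 windows (14.6%) of 6 genes, the 5 printed and ACACA, against 5.87% of all 35116 windows and 5.92% of the 15749 windows of tested genes. All 7 of these windows also held an NF-Y box, a pairing found in 1.84% of all windows. The 2 windows of SC5D overlap and hold the same SRE core, 14 bases after 1 start and 68 bases before the other, so this site is counted in 2 windows. IDI1 and ACACA each held the core in 1 of 3 windows. The NF-Y box, with or without an SRE core, was present in 60.4% of the windows, against 34.6% of all and 34.7% of those of tested genes. The Sp1 box was present in 85.4%, against 45.0% of all and 65.5% of those of tested genes. The E-box was present in 12.5%, against 7.26% of all and 9.14% of those of tested genes. By role, the SRE core was in 3 of 23 windows of sterol enzymes, 2 of 7 of regulators and 2 of 18 of fatty acid genes. These are matches of letters and not mapped binding sites.

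In the targeted gene, the level of PRSS22 in CPM (counts scaled to 1000000 per library) was 3.09, 3.16 and 2.61 in shPRSS22, against 10.1, 9.38 and 10.1 in shCtrl (log2 fold change -1.74, SE 0.135, adjusted p = 4.78e-12 by edgeR's quasi-likelihood test). Total counts were 15332449 to 15466647 per library in shPRSS22 and 14920523 to 15164328 in shCtrl. The epithelial markers EPCAM, CDH1, KRT8, KRT18 and KRT19 were abundant, and the summed CPM of the 10 epithelial markers was 4159 to 4395 in shPRSS22 and 4211 to 4417 in shCtrl. The 5 endothelial markers summed to 2.52 to 3.06 CPM in shPRSS22 and 1.32 to 2.44 CPM in shCtrl, without overlap. Among them TEK had 0.841, 0.781 and 0.652 CPM in shPRSS22, against 0.134, 0.264 and 0.264 CPM in shCtrl, and CDH5 was at 0 in all libraries. The summed immune list was 16.7 to 19.6 CPM in shPRSS22 and 14.5 to 16.5 CPM in shCtrl, nearly all of it CD68, while PTPRC did not exceed 0.0652 CPM. The part of these lists in the results was not tested. These are bulk samples, so a change in the make-up of the culture and a change in RNA per cell cannot be told apart.

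In shPRSS22, 17 of the 36 genes rose and 2 fell at an adjusted p under 0.05, while 17 were not called. The called share was 52.8%, against 39.1% of all tested genes. Higher calls made up 47.2% of the set, against 19.9% of all tested genes, and lower calls 5.56%, against 19.3%. The 3 libraries of shPRSS22 did not overlap the 3 of shCtrl in 25 genes (69.4%), against 48.6% of all tested genes. The median log2 fold change was 0.17, against -0.0056 over all tested genes. Most changes were small: the largest rise was 0.69 (INSIG1) and the largest fall 0.42 (TM7SF2) on the log2 scale. Higher calls made up 9 of the 18 sterol enzymes, 4 of the 6 regulators and 4 of the 12 fatty acid genes. In either direction, 55.6% of sterol enzymes, 66.7% of regulators and 41.7% of fatty acid genes were called. Without shPRSS22 library 2, ACSL3 and LPIN1 were also called, which made 6 of 12 fatty acid genes higher beside 9 of 18 sterol enzymes. The lower calls were the sterol enzyme TM7SF2 and the fatty acid gene ACSS2. In the authors' deposited table, a q-value under 0.05 was given to 18 of the 36 genes, 16 with a higher and 2 with a lower level in shPRSS22. The gene called here but not in the authors' deposited table was GGPS1 (q = 0.0761).

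**Figure D1:**
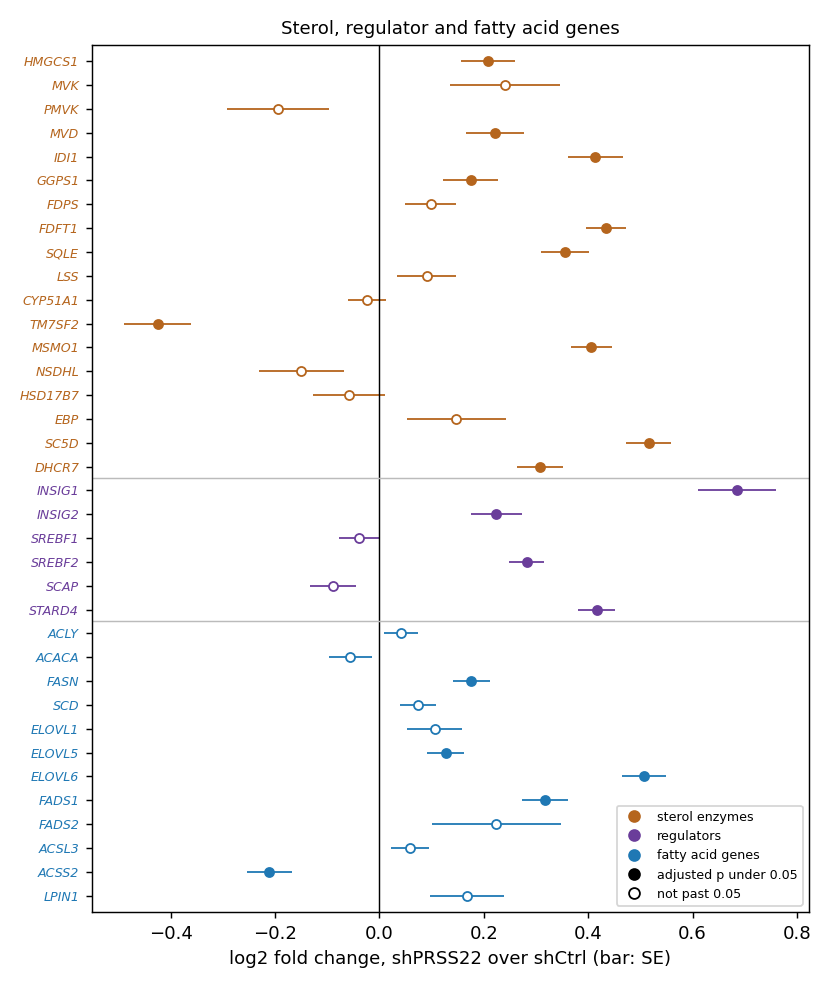
Log2 fold change of each of the 36 genes, shPRSS22 over shCtrl, with SE bars, coloured by role; filled points have an adjusted p under 0.05. Filled points to the right of 0 number 17 and filled points to the left number 2, TM7SF2 and ACSS2.

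Among the regulators, the feedback genes and the gene of SREBP2 rose, while the genes of SREBP1 and of the escort protein were not called. INSIG1, which retains SCAP in the endoplasmic reticulum and is itself an SREBP target, had 26.9, 32.6 and 28.5 CPM in shPRSS22, against 18.03, 17.4 and 19.2 CPM in shCtrl. Every shPRSS22 library lay above every shCtrl library, and the log2 fold change was the largest of the set at 0.69 (SE 0.0747, adjusted p = 7.50e-09). Its promoter, printed above, holds an SRE core and an NF-Y box. INSIG2, a retention protein whose gene is known to be less dependent on SREBPs, had 66.9, 61.1 and 62.8 CPM in shPRSS22, against 53.1, 54.7 and 55.4 CPM in shCtrl. The groups again did not overlap, with a smaller log2 fold change of 0.22 (SE 0.0484, adjusted p = 0.000403).

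SREBF2 had 223.8, 212.8 and 220.0 CPM in shPRSS22, against 180.0, 182.5 and 177.4 CPM in shCtrl. The groups were well apart, with a log2 fold change of 0.28 (SE 0.0339, adjusted p = 4.84e-08). SREBF1 had 132.9, 133.4 and 124.5 CPM in shPRSS22, against 132.9, 138.9 and 129.6 CPM in shCtrl. Its groups overlapped, and the log2 fold change of -0.04 was not called (adjusted p = 0.455). The table gives 1 value per gene, so the SREBF1 transcripts for the a and c forms of SREBP1 were not separated. SCAP had 73.6, 71.6 and 76.8 CPM in shPRSS22, against 77.0, 82.1 and 77.0 CPM in shCtrl. All 3 shPRSS22 libraries were lower than the shCtrl ones by a narrow margin, and the difference was not called (log2 fold change -0.09, adjusted p = 0.113). STARD4, a cytosolic sterol carrier, had 150.3, 152.1 and 152.7 CPM in shPRSS22, against 112.8, 113.8 and 114.3 CPM in shCtrl. The spread within each group was small beside the gap, and the log2 fold change was 0.42 (SE 0.0356, adjusted p = 4.23e-11).

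Sterol enzymes rose at steps spread along the route, from mevalonate formation to the last reduction of the ring. HMGCS1, which makes HMG-CoA at the entry to the route, had 74.3, 63.6 and 68.7 CPM in shPRSS22, against 57.8, 59.0 and 62.1 CPM in shCtrl. The lowest shPRSS22 library was just above the highest shCtrl library, with a log2 fold change of 0.21 (SE 0.0513, adjusted p = 0.00160). On log2(TPM + 1) values, limma did not call it (adjusted p = 0.0643). MVK and PMVK, the kinases that phosphorylate mevalonate in turn, were not called: MVK averaged 10.6 CPM in shPRSS22 and 8.93 CPM in shCtrl (log2 fold change 0.24, adjusted p = 0.0704). PMVK averaged 10.98 CPM in shPRSS22 and 12.6 CPM in shCtrl (log2 fold change -0.20, adjusted p = 0.113). MVD, the decarboxylase that follows, averaged 39.7 CPM in shPRSS22 and 34.1 CPM in shCtrl and rose by 0.22 on the log2 scale (adjusted p = 0.00213).

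IDI1, the isomerase of isopentenyl pyrophosphate, had 62.1, 55.7 and 55.5 CPM in shPRSS22, against 42.2, 43.6 and 44.3 CPM in shCtrl. The first shPRSS22 library stood highest, and the groups did not overlap (log2 fold change 0.41, SE 0.0530, adjusted p = 1.68e-07). At the branch to prenyl groups, GGPS1, which makes geranylgeranyl pyrophosphate, averaged 49.1 CPM in shPRSS22 and 43.5 CPM in shCtrl and rose by 0.17 on the log2 scale (adjusted p = 0.00791). FDPS, which makes farnesyl pyrophosphate, averaged 60.3 CPM in shPRSS22 and 56.3 CPM in shCtrl and was not called (log2 fold change 0.10, adjusted p = 0.115).

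The pair of enzymes that commit farnesyl pyrophosphate to sterols both rose. FDFT1, squalene synthase, had 124.7, 124.9 and 126.9 CPM in shPRSS22, against 93.1, 91.8 and 93.6 CPM in shCtrl. No library strayed from its group, and the log2 fold change was 0.43 (SE 0.0376, adjusted p = 5.59e-11). SQLE, the squalene epoxidase that controls flux late in the route, had 73.6, 78.2 and 71.3 CPM in shPRSS22, against 57.6, 58.4 and 58.4 CPM in shCtrl. The groups did not overlap, with a log2 fold change of 0.35 (SE 0.0463, adjusted p = 2.32e-07). The next enzymes, LSS, which closes the ring, and CYP51A1, which demethylates lanosterol, were not called. LSS averaged 43.7 CPM in shPRSS22 and 41.1 CPM in shCtrl (log2 fold change 0.09, adjusted p = 0.208). CYP51A1 averaged 143.6 CPM in shPRSS22 and 145.9 CPM in shCtrl (log2 fold change -0.02, adjusted p = 0.646).

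Later steps split in direction. MSMO1, the sterol methyl oxidase, had 145.2, 158.3 and 146.0 CPM in shPRSS22, against 108.4, 116.1 and 114.7 CPM in shCtrl. All 3 shPRSS22 libraries were well above shCtrl (log2 fold change 0.41, SE 0.0398, adjusted p = 8.54e-10). SC5D, a sterol desaturase, had 99.5, 93.7 and 97.3 CPM in shPRSS22, against 65.9, 67.6 and 69.7 CPM in shCtrl, and this was the largest rise among the sterol enzymes (log2 fold change 0.52, SE 0.0427, adjusted p = 2.04e-11). DHCR7, which carries out a final reduction, averaged 93.6 CPM in shPRSS22 and 75.6 CPM in shCtrl (log2 fold change 0.31, adjusted p = 1.22e-06). TM7SF2, a sterol reductase, was the sterol enzyme that fell: it had 24.6, 24.1 and 22.1 CPM in shPRSS22, against 31.6, 32.6 and 31.0 CPM in shCtrl. The shPRSS22 libraries were all lower, with a log2 fold change of -0.42 (SE 0.0639, adjusted p = 2.80e-06). LBR, an inner nuclear membrane protein with the same reductase activity and no member of the set, was also called higher (log2 fold change 0.14); it was picked after its value was seen.

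The remaining sterol enzymes were not called. NSDHL, of the demethylation complex, averaged 14.7 CPM in shPRSS22 and 16.3 CPM in shCtrl without overlap of the libraries (log2 fold change -0.15, adjusted p = 0.149). HSD17B7, a ketoreductase of the same complex, averaged 21.3 CPM in shPRSS22 and 22.2 CPM in shCtrl (log2 fold change -0.06, adjusted p = 0.531). EBP, a sterol isomerase, averaged 13.2 CPM in shPRSS22 and 11.96 CPM in shCtrl (log2 fold change 0.15, adjusted p = 0.226).

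**Figure D2:**
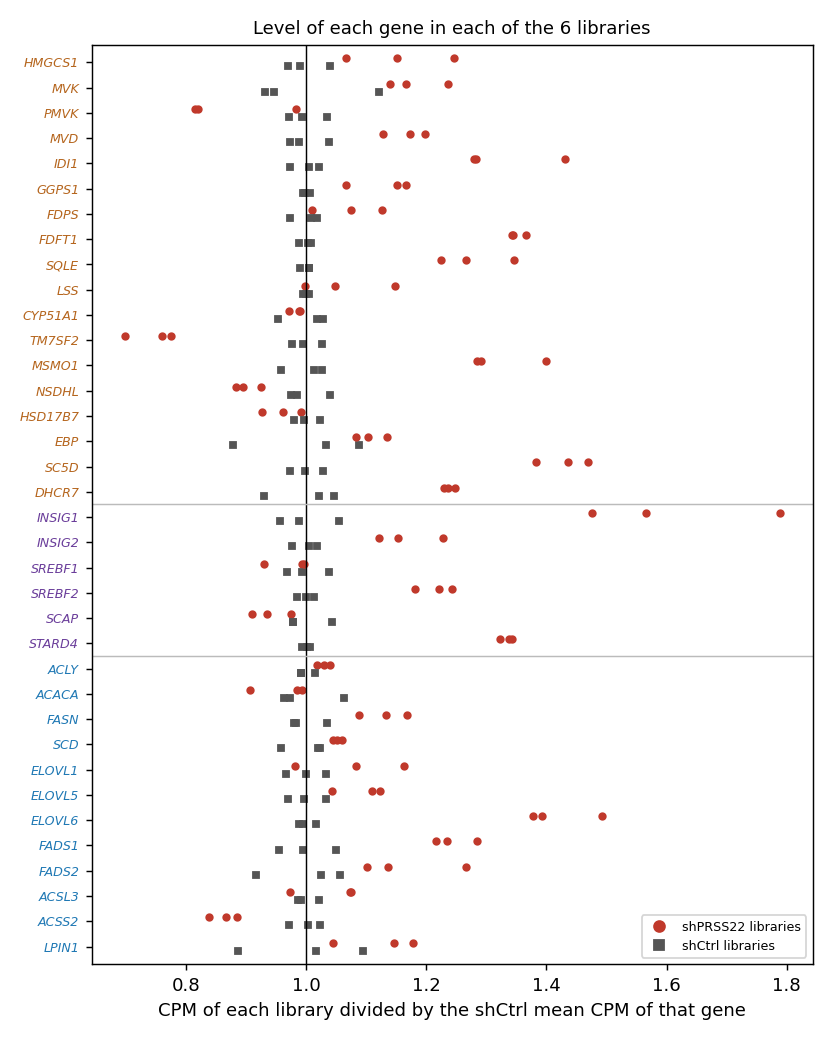
CPM of each library divided by the shCtrl mean CPM of the same gene, for the 36 genes in the order of their roles; circles are the 3 shPRSS22 libraries and squares the 3 shCtrl libraries. INSIG1, SC5D, ELOVL6, FDFT1 and STARD4 show circles far to the right of every square, and TM7SF2 shows circles to the left.

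In the fatty acid branch, FASN, ELOVL5, ELOVL6 and FADS1 rose, ACSS2 fell and 7 genes were not called. The called share of 41.7% was near the 39.1% of all tested genes. Higher calls made up 33.3%, against 19.9% of all tested genes, and lower calls 8.33%, against 19.3%. ACLY, which makes cytosolic acetyl-CoA from citrate, averaged 220.6 CPM in shPRSS22 and 214.2 CPM in shCtrl (log2 fold change 0.04, adjusted p = 0.325). ACACA, the carboxylase that makes malonyl-CoA, had 144.6, 131.9 and 143.4 CPM in shPRSS22, against 154.8, 140.3 and 141.6 CPM in shCtrl. Its groups overlapped, and the log2 fold change of -0.06 was not called (adjusted p = 0.295). ACSS2, which makes acetyl-CoA from acetate and is an SREBP target, fell: it had 65.8, 68.1 and 69.5 CPM in shPRSS22, against 80.3, 78.8 and 76.3 CPM in shCtrl. All shPRSS22 libraries were lower, with a log2 fold change of -0.21 (SE 0.0437, adjusted p = 0.000252).

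FASN, the synthase that builds palmitate, had 262.8, 254.8 and 244.8 CPM in shPRSS22, against 232.9, 220.6 and 221.3 CPM in shCtrl. The groups did not overlap, and the log2 fold change was 0.18 (SE 0.0350, adjusted p = 0.000151). SCD, the desaturase that makes oleate, had 801.6, 794.8 and 790.7 CPM in shPRSS22, against 770.7, 773.4 and 724.3 CPM in shCtrl. The shPRSS22 libraries were all higher, but the difference of 0.07 on the log2 scale was not called (SE 0.0344, adjusted p = 0.0893). Its promoter, printed above, holds an SRE core and NF-Y boxes.

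Elongases and front-end desaturases moved unequally. ELOVL6, which extends palmitate, had 101.7, 102.9 and 110.2 CPM in shPRSS22, against 73.0, 73.4 and 75.1 CPM in shCtrl. The gap was several times the spread within either group, and this was the largest rise of the branch (log2 fold change 0.51, SE 0.0423, adjusted p = 2.38e-11). ELOVL5, which extends polyunsaturated chains, had 190.7, 202.6 and 205.1 CPM in shPRSS22, against 177.3, 182.1 and 188.7 CPM in shCtrl. The lowest shPRSS22 library was close to the highest shCtrl library, and the log2 fold change was 0.13 (SE 0.0360, adjusted p = 0.00549). ELOVL1, which makes very long saturated chains, averaged 67.0 CPM in shPRSS22 and 62.2 CPM in shCtrl (log2 fold change 0.11, adjusted p = 0.109). FADS1, a front-end desaturase of polyunsaturated chains, had 83.5, 88.1 and 84.7 CPM in shPRSS22, against 72.0, 68.2 and 65.6 CPM in shCtrl. It rose without overlap (log2 fold change 0.32, SE 0.0446, adjusted p = 9.09e-07). FADS2, the desaturase that acts before it, averaged 7.23 CPM in shPRSS22 and 6.19 CPM in shCtrl and was not called, with 86 counts in its lowest library (log2 fold change 0.22, adjusted p = 0.155).

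ACSL3, an acyl-CoA synthetase of lipid droplets, averaged 228 CPM in shPRSS22 and 219 CPM in shCtrl and was not called (log2 fold change 0.06, adjusted p = 0.216). LPIN1, a phosphatidate phosphatase, averaged 29.8 CPM in shPRSS22 and 26.6 CPM in shCtrl and was not called (log2 fold change 0.17, adjusted p = 0.0598).

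The branches were then set side by side as a description. For each library, the mean log2 CPM of a branch was taken relative to the mean of the 6 libraries. Sterol enzymes stood at 0.0998, 0.0736 and 0.0559 in shPRSS22, against -0.0790, -0.0687 and -0.0816 in shCtrl. Regulators stood at 0.122, 0.131 and 0.115 in shPRSS22, against -0.139, -0.109 and -0.120 in shCtrl. Fatty acid genes stood at 0.0451, 0.0522 and 0.0932 in shPRSS22, against -0.0506, -0.0715 and -0.0685 in shCtrl. In each branch all 3 shPRSS22 libraries were above all 3 shCtrl libraries. The first shPRSS22 library was the highest for sterol enzymes and the lowest for fatty acid genes, and shPRSS22 library 3 was the reverse. The sterol level minus the fatty acid level was 0.0546, 0.0214 and -0.0373 in shPRSS22, against -0.0284, 0.00279 and -0.0131 in shCtrl, so the groups overlapped. The median log2 fold change was 0.19 for sterol enzymes, 0.25 for regulators and 0.12 for fatty acid genes. The median of sterol enzymes exceeded that of fatty acid genes by 0.075 with all libraries and lay 0.0016 below it without the first shPRSS22 library, at 0.151 and 0.152.

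**Figure D3:**
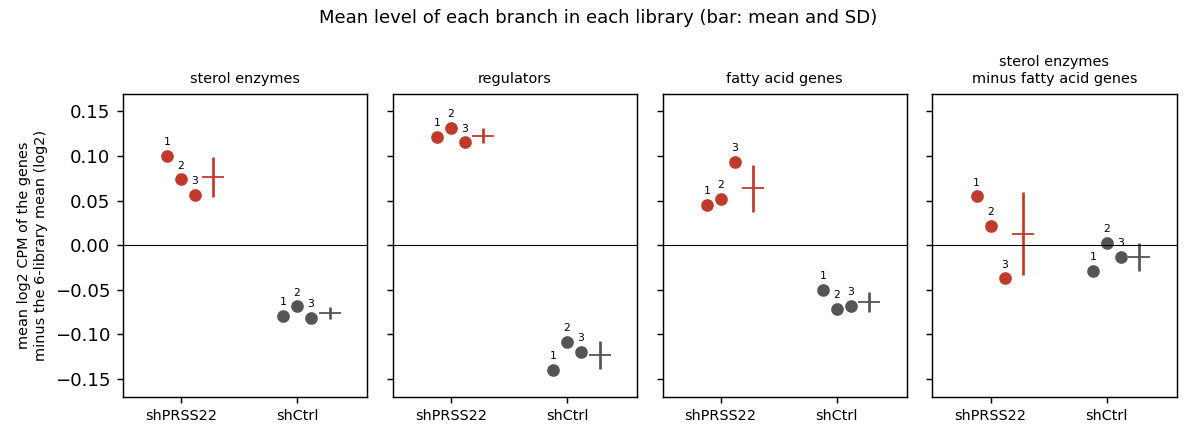
Mean log2 CPM of the genes of each branch in each library, relative to the 6-library mean, with the mean and SD of each group beside the numbered libraries. The 3 shPRSS22 libraries lie above the 3 shCtrl libraries in each branch, and the groups overlap in the sterol minus fatty acid panel.

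The authors' TPM values, which are scaled for transcript length and library size, allow levels to be compared between genes. Summed TPM of the sterol enzymes was 871, 839 and 847 in shPRSS22, against 728, 742 and 742 in shCtrl, a ratio of means of 1.16. The regulators summed to 272, 258 and 268 TPM in shPRSS22, against 225, 233 and 229 TPM in shCtrl, a ratio of 1.16. The fatty acid genes summed to 842, 823 and 854 TPM in shPRSS22, against 794, 784 and 778 TPM in shCtrl, a ratio of 1.07. No sum overlapped between the groups. In both groups SCD was the most abundant gene of the set by TPM, at a mean of 258 in shPRSS22 and 244 in shCtrl. FADS2 was the least abundant, at 4.22 TPM in shPRSS22 and 3.57 TPM in shCtrl. MSMO1 was the most abundant sterol enzyme in both groups, at 126 TPM in shPRSS22 and 94.9 TPM in shCtrl. FDPS, at 99.95 TPM in shPRSS22 and 91.4 TPM in shCtrl, was below FDFT1 (115 TPM) in shPRSS22 and above it (84.2 TPM) in shCtrl.

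**Figure D4:**
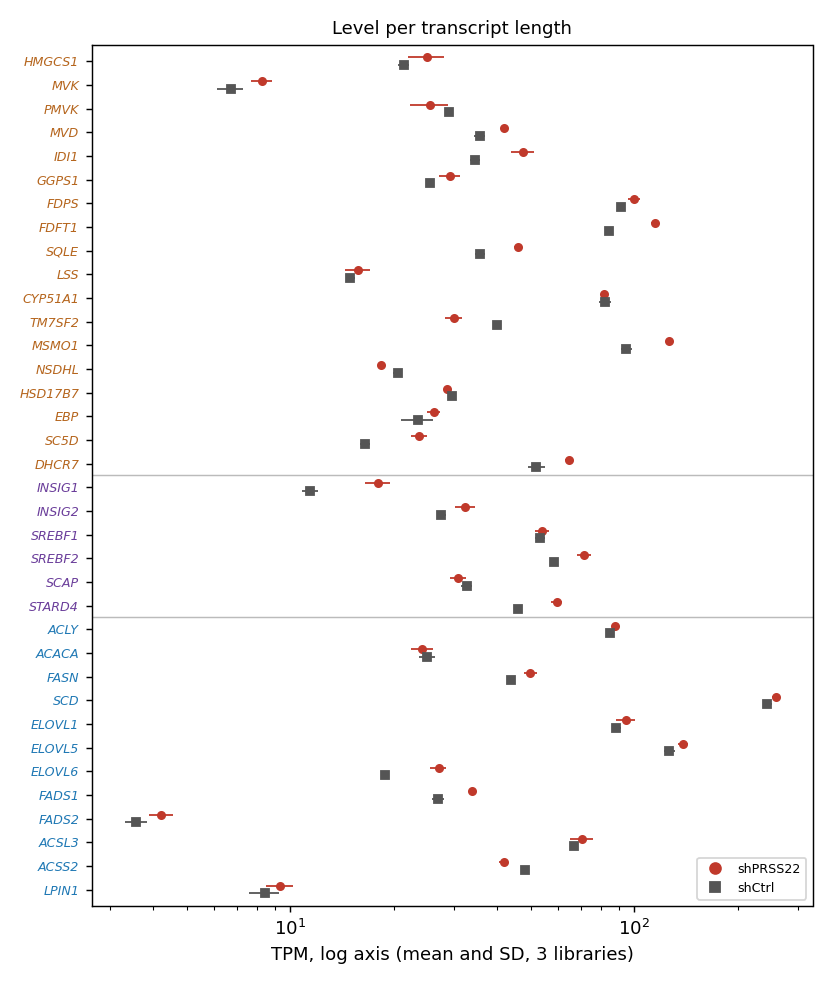
Mean TPM of each gene with SD (n = 3 libraries each) on a log axis; circles are shPRSS22 and squares shCtrl. SCD has the highest level and FADS2 the lowest in both groups.

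Balance between related genes was described by ratios of TPM within each library. The 6 pairs were picked after their values were seen, so no p-value is read from them. SREBF2 to SREBF1 was 1.32, 1.25 and 1.41 in shPRSS22, against 1.11, 1.07 and 1.12 in shCtrl. INSIG1 to INSIG2 was 0.485, 0.647 and 0.553 in shPRSS22, against 0.417, 0.400 and 0.430 in shCtrl. ELOVL6 to ELOVL5 was 0.197, 0.188 and 0.200 in shPRSS22, against 0.149, 0.153 and 0.147 in shCtrl. In these 3 ratios every shPRSS22 library was above every shCtrl library. MSMO1 to CYP51A1 was 1.52, 1.61 and 1.499 in shPRSS22, against 1.16, 1.15 and 1.15 in shCtrl. FDFT1 to FDPS was 1.13, 1.09 and 1.23 in shPRSS22, against 0.945, 0.895 and 0.923 in shCtrl. Both of these also lay apart. FADS1 to FADS2 overlapped, with means of 8.03 in shPRSS22 and 7.56 in shCtrl.

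Other genes of lipid metabolism were read from fixed lists. ACAT2, which makes acetoacetyl-CoA for sterol synthesis, averaged 18.9 CPM in shPRSS22 and 13.8 CPM in shCtrl (log2 fold change 0.45, SE 0.0917, adjusted p = 0.000235).

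Of 11 genes of SREBP processing and sterol sensing, 3 rose and 2 fell (45.5% called, against 39.1% of all tested genes), with a median of 0.05. RNF145, a ubiquitin ligase of the endoplasmic reticulum, rose by 0.30 on the log2 scale. RNF139, a related ligase, had a log2 fold change of 0.12, and its call was lost without library 2 or 3 of either group (adjusted p up to 0.112). SPRING1, a Golgi cofactor of SREBP activation, had a log2 fold change of 0.11, and its call was lost without shPRSS22 library 2 or 3 or shCtrl library 1 or 2 (adjusted p up to 0.200). ERLIN1 and ERLIN2, sterol-binding proteins of the endoplasmic reticulum, each fell by 0.19 on the log2 scale. NPC1, which exports sterol from lysosomes, averaged 114.7 CPM in shPRSS22 and 95.2 CPM in shCtrl (log2 fold change 0.27, adjusted p = 1.08e-06). Of 9 genes of the liver X receptor and oxysterol response, 1 rose and 2 fell (33.3% called), with a median of -0.06. These were SOAT1, the sterol esterifying enzyme (0.12), NR1H2, a liver X receptor (-0.22), and MYLIP, a ubiquitin ligase (-0.16). The call of SOAT1 was lost without shPRSS22 library 3 or shCtrl library 1 or 3 (adjusted p up to 0.123). That of MYLIP was lost without shPRSS22 library 3 or shCtrl library 2 or 3 (adjusted p up to 0.0997).

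Of 17 other genes of fatty acid synthesis and elongation, 8 rose and 2 fell (58.8% called, against 39.1% of all tested genes). Their median log2 fold change was 0.07. ME1, the malic enzyme that supplies NADPH, averaged 159 CPM in shPRSS22 and 94.8 CPM in shCtrl (log2 fold change 0.75, SE 0.0407, adjusted p = 9.39e-16). OLAH, a thioesterase that releases chains from the synthase, averaged 10.0 CPM in shPRSS22 and 4.02 CPM in shCtrl (log2 fold change 1.32, SE 0.124, adjusted p = 3.68e-10). MID1IP1, an activator of acetyl-CoA carboxylase, fell by 0.16 on the log2 scale. On log2(TPM + 1) values, limma did not call MID1IP1 (log2 fold change -0.097, adjusted p = 0.0506). HACD1, an elongation dehydratase, had a log2 fold change of 0.34, and its call was lost without library 1 or 3 of shPRSS22 or library 1 or 2 of shCtrl (adjusted p up to 0.0747). MECR, of the mitochondrial pathway, had a log2 fold change of -0.26, lost without the second shCtrl library (adjusted p = 0.0526). Of 13 non-sterol isoprenoid genes, 1 rose and 1 fell (15.4% called, against the same 39.1%), with a median of 0.02. These were ICMT, a prenyl protein methyltransferase (0.13), and RABGGTB, a subunit of the Rab prenyltransferase (-0.27).

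Among the 36 genes, IDI1, GGPS1, FDFT1, SREBF2 and STARD4, had estimated counts with decimals in 4 to 6 libraries, which marks reads shared with other genes or copies. The kit described does not mark strand, so reads from genes that overlap on opposite strands cannot be told apart by strand. In GENCODE v29, 28.9% of the exon bases of FDPS were shared with RUSC1-AS1 and 19.9% of those of HMGCS1 with AC114947.2, both on the opposite strand. For GGPS1, 11.3% were shared with TBCE on the same strand, where marking strand would not help. TBCE had a log2 fold change of 0.25.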

How the data were processed

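Polyadenylated RNA of 6 HCT116 libraries was sequenced without a step described to mark strand. The submitters' processing notes name RSEM 1.3.1, the aligners HISAT2 2.2.1 and Bowtie2 2.3.4.3, and DESeq2 1.4.5, without saying which step each served, and build GRCh38.p13. The authors deposited estimated counts and TPM per gene and library, and log2 fold changes with p-values and q-values of their own comparison. Estimated counts were rounded and tested with edgeR 4.0.16 in R 4.3.3 (TMM scaling, filterByExpr, robust quasi-likelihood fit, design without a block), with Benjamini-Hochberg adjustment over all 13104 genes. SE is the absolute log2 fold change divided by the square root of F. CPM uses TMM-scaled totals, except for cell type markers, given on unscaled totals. The steps were tested on simulated data. The genes, their split by role and the lists were chosen with earlier results of these data known. Values per library are given for the 6 regulators, for HMGCS1, SQLE, ACACA, FASN and SCD, and in each enzyme branch for up to 5 rises and 3 falls past 0.05; in other lists, up to 3 rises and 3 falls at a mean of at least 1 CPM are named. Alternatives were DESeq2 1.42.0, RLE scaling, no filter or a CPM filter, limma 3.58.1 on log2(TPM + 1) and log2(TPM + 0.1), a replicate block and leaving out each library. Some genes that the naming rule covers are not reported here. FPKM values and the authors' group means were not used here.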

Additional observations from a re-analysis of the deposited data

How the results depend on the processing

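Of the 19 called genes, 18 kept their call and direction under all 13 alternatives; HMGCS1 was not called by limma on log2(TPM + 1) (adjusted p = 0.0643) or log2(TPM + 0.1) (adjusted p = 0.0611). All 19 were kept on leaving out each library. The number of sterol enzymes called higher was 10 with limma on either TPM scale. There MVK (adjusted p = 0.0320 on log2(TPM + 1)) and FDPS (adjusted p = 0.0316) joined and HMGCS1 dropped out. It was 9 to 10 on leaving out libraries, where FDPS joined without shPRSS22 replicate 3 and MVK without shCtrl replicate 1. The number of sterol enzymes called lower was 2 with limma on log2(TPM + 1) and 2 on log2(TPM + 0.1), where NSDHL joined TM7SF2, and 1 to 2 on leaving out libraries, where PMVK joined without shPRSS22 replicate 1. The median log2 fold change of sterol enzymes was 0.215 with the regulators added, 0.208 without GGPS1, and 0.151 to 0.208 on leaving out libraries. The number of fatty acid genes called higher was 4 to 6 on leaving out libraries. Their median was 0.0972 to 0.152, and the sterol median minus the fatty acid median -0.0016 to 0.0975; the negative value came without shPRSS22 replicate 1, and the cause was not tested. Same-numbered libraries did not deviate together (r = 0.0194, 0.0329 and 0.0908), so the numbers are not taken to pair them. With the replicate block, 19 genes were called higher and 2 lower, with 6 fatty acid genes among the higher, adding SCD (adjusted p = 0.0275) and LPIN1 (adjusted p = 0.0416). DESeq2 called 17 higher and 2 lower. There were 3 libraries a group, with a common coefficient of variation of 2.97%. The smallest difference called among the 36 genes was 0.13 on the log2 scale, in ELOVL5 at a mean of 191 CPM. Larger differences were not called in genes with few counts. These were MVK (0.24), PMVK (-0.20) and FADS2 (0.22), which had the fewest counts of the set at 86 to 120 per library.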

Other observations

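The lists of acyl-CoA synthetases, glycerolipid synthesis and fatty acid oxidation had medians near 0 in shPRSS22. Lists closer to the set did not all do so. The median log2 fold change was 0.19 for other sterol synthesis genes and 0.12 for lipoprotein uptake and other SREBP2 targets. Of 9 tested acyl-CoA synthetases and fatty acid transporters outside the set, 2 rose and 3 fell (55.6% called, against 39.1% of all tested genes), with a median log2 fold change of 0.01. ACSL5, an acyl-CoA synthetase of intestinal epithelium, had 169.4, 177.8 and 154.9 CPM in shPRSS22, against 250.6, 249.8 and 237.6 CPM in shCtrl. It fell without overlap (log2 fold change -0.56, SE 0.0401, adjusted p = 1.21e-11 by edgeR's quasi-likelihood test), while ACSL3 of the same family was not called. SLC27A1, a fatty acid transport protein, averaged 35.7 CPM in shPRSS22 and 50.8 CPM in shCtrl (log2 fold change -0.51, adjusted p = 1.06e-08). SLC27A2, of the same transporter family, averaged 37.9 CPM in shPRSS22 and 32.8 CPM in shCtrl (log2 fold change 0.21). ACSF2 had a log2 fold change of 0.18, and its call was lost without the second library of either group (adjusted p up to 0.0732). ACSL4, which favours arachidonate, had a log2 fold change of -0.09, and its call was lost without shPRSS22 library 1 or 2 or shCtrl library 1 or 3 (adjusted p up to 0.178).

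Of 14 glycerolipid synthesis genes, 2 rose and 1 fell and 11 were not called (21.4% called, against 39.1% of all tested genes), with a median of -0.01. AGPAT4, a lysophosphatidate acyltransferase, had 54.7, 46.7 and 54.0 CPM in shPRSS22, against 32.2, 34.2 and 32.6 CPM in shCtrl. Its libraries did not overlap (log2 fold change 0.65, SE 0.0599, adjusted p = 2.28e-10). GPAT3, which starts triglyceride synthesis, had a log2 fold change of 0.22. AGPAT1 had a log2 fold change of -0.14, and its call was lost without shCtrl library 1 or 2 (adjusted p up to 0.0823). Among fatty acid oxidation genes, the median log2 fold change of 17 was -0.0062, and 23.5% were called. SLC25A20, the mitochondrial acylcarnitine carrier, had a log2 fold change of 0.26, and DESeq2 did not call it (adjusted p = 0.0617). CPT1A, which makes acylcarnitines, had a log2 fold change of -0.14, lost without shPRSS22 library 2 or shCtrl library 3 (adjusted p up to 0.209). ACADVL, a mitochondrial dehydrogenase, had a log2 fold change of -0.10, lost without shPRSS22 library 2 or 3 or shCtrl library 1 or 2 (adjusted p up to 0.288).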
